A study of Homo sapiens with 4 samples.

Results

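Long intergenic noncoding RNAs, named LINC and a number, are long transcripts that lie between coding genes and carry no recognised protein. The LINC transcripts described here are the rows of the count table with such a symbol and 100 or more reads summed over all 4 libraries, 183 of 46427 rows. Members were thus selected on their summed reads, which do not say which libraries held them. The table held 2123 LINC rows in all, of which 1487 had 0 reads in every library and 453 had 1 to 99. The cells were H1944, an established line of human lung cancer, sampled after 48 h in the inhibitor BAY1217389 and 24 h without it, or after DMSO, its vehicle, over the same times, with 2 biological replicates per treatment. BAY1217389 blocks MPS1, also called TTK, a kinase of the spindle checkpoint, which delays chromosome segregation while any chromosome is unattached. The series concerns negative regulators of STING, which signals DNA in the cytosol. All libraries come from 1 cell line. The libraries were made from poly(A) RNA, so transcripts without a poly(A) tail are poorly sampled.

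Most LINC RNAs are capped, spliced and polyadenylated like messenger RNAs, but they are usually less abundant, more restricted to certain cell types and often kept in the nucleus. Few have an established function. Known modes of action include scaffolding proteins, acting on the gene next door while being transcribed, and binding microRNAs. In lung cancer they are mostly known as transcripts that differ between tumours, and the reported roles cited here come from other cells and studies.

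Reads on genes totalled 43661342 and 43067647 in the BAY1217389 libraries, against 39332931 and 38904473 in the DMSO libraries. MX1 and IFIT1, genes induced by interferon, averaged 902 and 645 CPM (counts scaled to library size and composition) in BAY1217389 libraries, against 55.3 and 40.6 CPM in DMSO libraries. The epithelial markers KRT8, KRT18 and CDH1 were detected in every library and were higher after BAY1217389, EPCAM was detected and not called, and KRT19 was at 0. The leukocyte marker PTPRC was at 0 in every library. COL1A1, a fibroblast marker, had 261 and 292 reads in BAY1217389 libraries and 161 and 174 in DMSO libraries, and PECAM1, an endothelial marker, had 63 and 68 in BAY1217389 libraries and 31 and 31 in DMSO libraries. Their part in the results on LINC transcripts was not tested. Fewer cells of one kind and less RNA per cell cannot be told apart in bulk RNA.

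The name "intergenic" held for most members. RefSeq matched 182 of the 183 to a gene, each a long noncoding RNA. GENCODE gave 158 of them a single gene, of which 124 were typed as long intergenic, 11 as antisense, 13 as processed transcripts, 2 as bidirectional-promoter RNAs and the other 8 as transcribed pseudogenes. Of all members, 14 overlapped the span of a tested coding gene, a count that includes transcripts on either strand. Since their symbols were given, 15 members have been renamed, 6 of them as divergent transcripts of a named gene and 2 as antisense transcripts. The sources used here do not give whether reads were counted by strand, so reads of members that overlap another gene cannot be assigned to one of the 2 with certainty.

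LINC transcripts took a small share of the reads. Together the members had 49511 and 48180 reads in the BAY1217389 libraries, 0.113% and 0.112% of all reads. They had 45907 and 45118 in the DMSO libraries, 0.117% and 0.116%. Both shares after BAY1217389 lay below both after DMSO. The median member had 384 reads over the 4 libraries, and the 8 most-read members held 37.0% of all member reads. At least 1 read fell on 480 and 505 LINC rows of any depth in the BAY1217389 libraries, against 414 and 416 in the DMSO libraries. After thinning every library to the smallest total the counts were 479 and 504 in the BAY1217389 libraries and 414 and 416 in the DMSO libraries, so the groups did not overlap at equal depth. Rows of any kind with reads also numbered more after BAY1217389, 21742 and 21773 against 20563 and 20447 after DMSO. With 2 libraries against 2, an exact permutation test cannot reach a two-sided p under 0.333, so none is given.

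After BAY1217389, 15 LINC transcripts were higher and 13 were lower. A call means a Benjamini-Hochberg adjusted p under 0.05 in edgeR's quasi-likelihood test over all 16738 tested genes, and all 183 members were tested. The calls took in 8.2% of the LINC transcripts as higher and 7.1% as lower, 15.3% together, against 14.5%, 13.3% and 27.8% of all tested genes. Across the members the median log2 fold change (BAY1217389 over DMSO) was 0.01, beside 0.0011 over all tested genes, with 94 members above 0 and 89 below. The changes were modest: 90 members lay within 0.2 of 0 on the log2 scale. By at least 1 on that scale 5 of the 183 members were called higher and 1 lower. Of the 16738 tested genes 537 (3.21%) and 40 (0.239%) were. In 44 members both BAY1217389 libraries lay above both DMSO libraries and in 44 both lay below, 24% each, where 30.5% of all tested genes did so in each direction. All 28 called members were among them, so separate groups in a called member add no support to its call. The count of 15 higher was 7 without either BAY1217389 replicate, 9 without DMSO replicate 2 and 9 with DESeq2, and the count of 13 lower was 8 without BAY1217389 replicate 2.

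**Figure D1:**
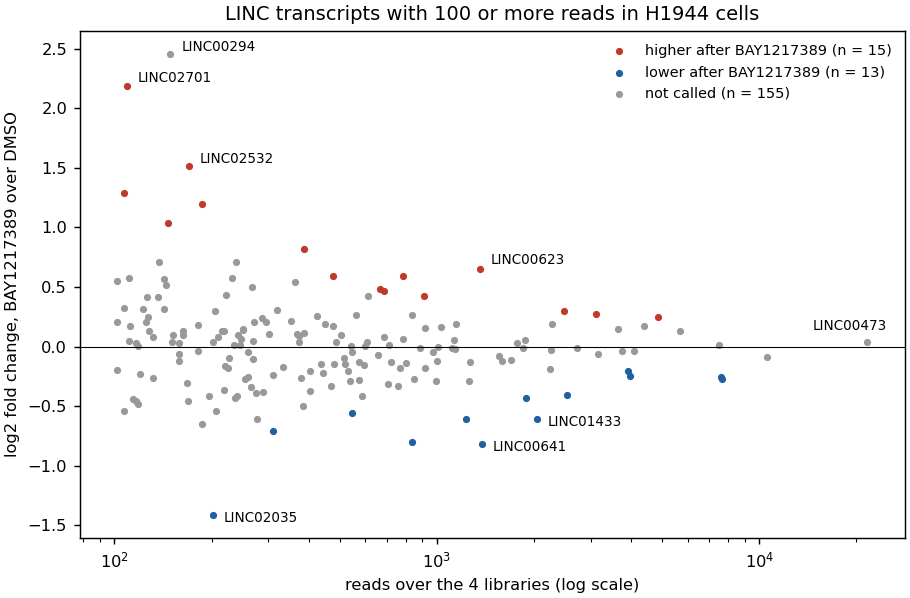
Each point is 1 of the 183 LINC transcripts, with its reads over the 4 libraries on the x axis (log scale) and its log2 fold change, BAY1217389 over DMSO, on the y axis. The 15 called higher and 13 called lower are coloured, the largest changes sit below 300 reads, and LINC00473, the most-read member, lies at 0.03.

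The share of members called followed how many reads they had, as it did for all genes. Among the 80 members with 100 to under 300 reads, 5 were higher and 1 lower (7.5%), where 10.8% of all tested genes in that range were called, 9.23% higher and 1.53% lower. Among the 63 with 300 to under 1000 reads, 6 were higher and 3 lower (14.3%), against 15.9% of all genes, 11.8% higher and 4.1% lower. Among the 40 with 1000 or more reads, 4 were higher and 9 lower (32.5%), against 36.9% of all genes, 17.3% higher and 19.6% lower. The median standard error of a member's log2 fold change was 0.334 in the lowest class and 0.0946 in the highest. In each class the members' share was 1.6 to 4.4 percentage points below that of all tested genes, where without classes it was 12.5 points below.

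**Figure D2:**
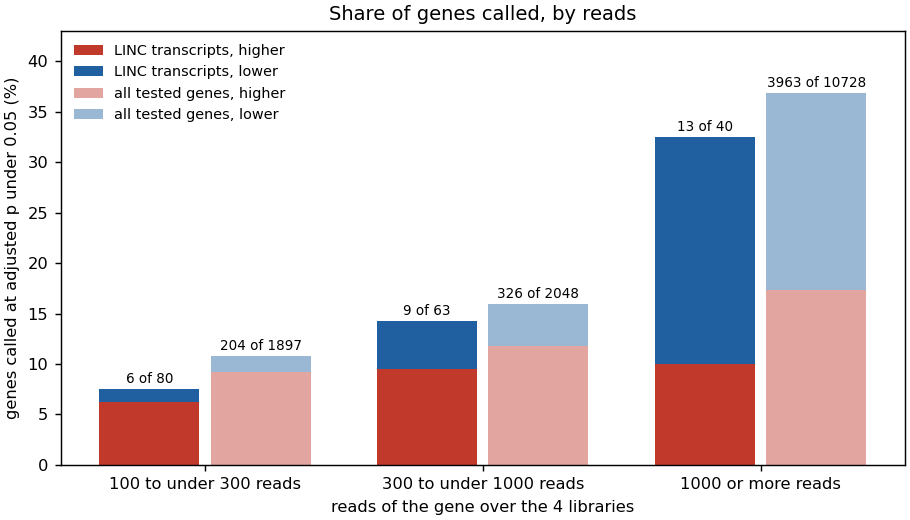
Bars give the percentage of genes called higher (red) and lower (blue) after BAY1217389 for LINC transcripts (left, solid) and all tested genes (right, pale), in 3 classes of reads over the 4 libraries. Labels give the number called of the number tested, 6 of 80, 9 of 63 and 13 of 40 for the LINC transcripts.

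The sum of 100 reads can be reached through the group in which a member is high. Of the members, 10 had fewer than 50 reads in the DMSO libraries together, all 10 were above 0 in log2 fold change and 4 were called, and 1 had fewer than 50 in the BAY1217389 libraries. Among the 172 members with 50 or more reads in each group, 11 were higher and 13 lower. Just inside the limit were LINC00920, LINC02341 and LINC02438 with 102 reads each and LINC00324, LINC00900 and LINC02057 with 107 each. Just outside were LINC01843 with 99 and LINC02600, LINC02804 and LINC02882 with 98 each. Of these 10, LINC02057 was called higher, and their counts per library ran from 11 to 39.

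The largest rises were in transcripts with few reads. Of the 5 by at least 1 on the log2 scale, LINC02701, LINC02532, LINC02057 and LINC01559 are the 4 called members with under 50 reads in the DMSO libraries, which reached the limit of 100 through the BAY1217389 libraries, so their number and their calls are no support for a rise among LINC transcripts. LINC02701 had 42 and 49 reads in the BAY1217389 libraries, against 5 and 13 in the DMSO libraries, or 1.05 ± 0.128 CPM and 0.23 ± 0.145 CPM (SD, n = 2 each). Its log2 fold change was 2.19 (SE 0.48, edgeR adjusted p = 0.000622), the groups did not overlap, and the DMSO libraries differed from each other by 2.62 times. LINC02532 had 66 and 63 reads after BAY1217389 and 24 and 17 after DMSO (log2 fold change 1.51, SE 0.35, edgeR adjusted p = 0.000994). LINC01914 had 62 and 72 reads after BAY1217389, against 27 and 26 after DMSO (log2 fold change 1.20, SE 0.33). LINC02057 had 39 and 39 reads after BAY1217389 and 18 and 11 after DMSO (log2 fold change 1.28, SE 0.45). LINC01559 had 59 and 43 reads after BAY1217389 and 29 and 16 after DMSO (log2 fold change 1.04, SE 0.38). In each of the 5 both BAY1217389 libraries exceeded both DMSO libraries, in LINC01559 by 43 reads against 29 at the nearest. The calls of LINC02701 and LINC02532 held with any 1 library left out. LINC01914 lost its call without BAY1217389 replicate 2 (edgeR adjusted p = 0.0835). LINC02057 and LINC01559 lost theirs without either BAY1217389 replicate or DMSO replicate 2 (edgeR adjusted p = 0.158 to 0.168 and 0.0798 to 0.341), and with DESeq2 (adjusted p = 0.0913 and 0.118), and LINC01559 also without the filter on low counts (edgeR adjusted p = 0.0657).

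The start regions of 3 of these rises are shown so that the motifs found, or not found, can be read in the letters themselves. RefSeq's promoter table on GRCh38.p14 holds 250 bases before and 50 after the start site, 5′ to 3′ on the transcript's strand. Capitals mark any of the 6 motifs searched: an ISRE-like motif (2 GAAA runs with any 2 bases between them, like the element bound by interferon-activated factors), a GAS-like motif (TTCNNNGAA), the TATA box (TATAAA), the CCAAT box (CCAAT), an E-box (CACGTG) and an AP-1 motif (TGANTCA), on either strand, so that ATTGG is a CCAAT box read from the other strand. No match overlapped another in the sequences printed here. LINC02701 starts within chr11:68868110-68868409 on the plus strand, LINC02057 within chr5:61264880-61265179 on the minus strand and LINC01914 within chr2:41933674-41933973 on the minus strand.
LINC02701: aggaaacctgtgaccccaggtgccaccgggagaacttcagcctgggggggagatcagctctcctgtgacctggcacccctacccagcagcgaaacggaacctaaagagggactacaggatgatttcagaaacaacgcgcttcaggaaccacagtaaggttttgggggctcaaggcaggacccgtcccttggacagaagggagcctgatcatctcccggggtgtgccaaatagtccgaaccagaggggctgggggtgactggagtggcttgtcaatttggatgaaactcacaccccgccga
LINC02057: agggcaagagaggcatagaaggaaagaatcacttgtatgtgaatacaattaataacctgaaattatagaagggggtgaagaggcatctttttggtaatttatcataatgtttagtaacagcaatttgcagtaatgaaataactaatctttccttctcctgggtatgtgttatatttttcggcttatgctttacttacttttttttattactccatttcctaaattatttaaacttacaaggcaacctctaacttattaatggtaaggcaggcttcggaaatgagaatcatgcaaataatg
LINC01914: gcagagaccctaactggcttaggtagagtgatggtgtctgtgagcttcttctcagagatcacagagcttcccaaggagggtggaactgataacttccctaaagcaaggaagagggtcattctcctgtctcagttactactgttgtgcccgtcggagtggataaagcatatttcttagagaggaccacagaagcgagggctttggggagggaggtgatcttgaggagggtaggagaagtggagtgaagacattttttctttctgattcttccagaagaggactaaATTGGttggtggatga
LINC02701 and LINC02057 held none of the motifs, and LINC01914 held a CCAAT box at position 35 counted from the start site. Their GC content was 58%, 32.3% and 48%, beside a median of 58.7% over all 35116 promoters of the table. The median was 66% over the 12 higher members with a start region and 58.7% over the 11 lower ones. The 3 printed here are thus not typical of the rises in GC content. LINC02532 and LINC01559 are not in the table.

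Of 5 chromosome 1 transcripts that are linked by near-identical stretches, 3 were higher. LINC00623 had 415 and 447 reads in the BAY1217389 libraries, against 249 and 251 in the DMSO libraries, or 9.98 ± 0.65 CPM and 6.37 ± 0.0642 CPM (SD, n = 2 each; log2 fold change 0.65, SE 0.12, edgeR adjusted p = 5.2e-05). LINC01145 had 249 and 240 reads after BAY1217389, against 154 and 141 after DMSO (log2 fold change 0.59, SE 0.16, edgeR adjusted p = 0.00404). LINC00869 had 106 and 150 after BAY1217389, against 69 and 63 after DMSO (log2 fold change 0.82, SE 0.24, edgeR adjusted p = 0.00785). All 3 were separated by group. The relatives LINC01138 and LINC02591 were not called. GENCODE typed LINC00869 and LINC01145 as transcribed pseudogenes, as it did LINC00674 and LINC02210 among the other called members. The remaining members of that type were not called.

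LINC01138 had 201 and 164 reads after BAY1217389 and 148 and 100 after DMSO (log2 fold change 0.42, SE 0.19). LINC02591 had 34 and 37 after BAY1217389 and 24 and 28 after DMSO (log2 fold change 0.31, SE 0.39). Each of the 5 has a stretch of at least 98% identity over 150 bases or more with some of the others in GENCODE transcripts, 3389 bases between LINC01145 and LINC02591, 737 between LINC00623 and LINC00869 and 179 between LINC00623 and LINC01138. LINC02591 has none with LINC00869 or LINC01138, and each of the 5 also matched between 2 and 10 genes in all, counting genes outside the group. Reads from such stretches cannot be given to 1 member, so these calls are not independent. Summed over the 5, a sum chosen after the values were seen and made up mostly of the 3 called members, the reads were 1005 and 1038 after BAY1217389 and 644 and 583 after DMSO (log2 fold change 0.60, SE 0.08). LINC00869 lost its own call without BAY1217389 replicate 2 (edgeR adjusted p = 0.221) and LINC01145 without BAY1217389 replicate 1 (edgeR adjusted p = 0.052). The stretch of 177 bases below is the longest run that LINC00623, LINC00869 and LINC01145 hold without a difference, all letters being shared by the 3.
Shared by LINC00623, LINC00869 and LINC01145: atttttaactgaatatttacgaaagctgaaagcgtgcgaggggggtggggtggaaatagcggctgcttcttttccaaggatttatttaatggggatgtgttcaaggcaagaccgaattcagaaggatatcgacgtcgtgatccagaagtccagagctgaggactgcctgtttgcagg

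LINC00623 was the only called member whose start region held the ISRE-like motif, at position -63. The region, chr1:120912967-120913266 on the plus strand, also held CCAAT boxes at -134 and -108, and all 3 are in capitals.
LINC00623: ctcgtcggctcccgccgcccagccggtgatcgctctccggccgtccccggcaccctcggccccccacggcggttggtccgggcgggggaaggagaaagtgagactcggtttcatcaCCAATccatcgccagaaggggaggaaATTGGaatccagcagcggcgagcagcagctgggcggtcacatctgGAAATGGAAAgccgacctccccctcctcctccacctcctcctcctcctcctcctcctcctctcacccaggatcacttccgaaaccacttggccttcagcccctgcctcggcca
The start regions of LINC00869 and LINC01145 held none of the 6 motifs. All 3 regions cover parts of a related sequence, cut at different places. That of LINC00869 ends in letters that, in LINC01145, come just before the run that opens the LINC00623 region. That of LINC01145 stops before the first CCAAT box of LINC00623 is complete, ahead of its ISRE-like motif. Letters further on were not searched in them, so their lack of motifs is no contrast with LINC00623. Over the 136 members with a start region in the table, 2.21% held the ISRE-like motif, beside 3.57% of all promoters. The GAS-like motif was in 6.62% of members and 7.66% of all, the AP-1 motif in 11.8% and 7.71%, and the CCAAT box in 39% and 34.6%. The AP-1 and GAS-like motifs were in 0 of the 12 higher and 0 of the 11 lower members that have a start region. A match is a run of letters and was not tested as a binding site.

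Other members rose by less. LINC02535, a transcript studied in several cancers, had 161 and 136 reads after BAY1217389, against 89 and 90 after DMSO (log2 fold change 0.59, SE 0.21). LINC01508 had 222 and 181 after BAY1217389 and 129 and 133 after DMSO (log2 fold change 0.48, SE 0.17). LINC01116, reported to promote growth in several cancers, had 217 and 197 after BAY1217389 and 149 and 124 after DMSO (log2 fold change 0.46, SE 0.17). In these 3 the lowest BAY1217389 library stood above the highest DMSO library. LINC02802 had 281 and 261 after BAY1217389 and 174 and 193 after DMSO (log2 fold change 0.42, SE 0.15). LINC00941, reported to be high in several tumours, had 930 and 852 after BAY1217389, against 700 and 639 after DMSO (log2 fold change 0.28, SE 0.08, edgeR adjusted p = 0.0114). LINC00707, reported to support growth of lung adenocarcinoma cells, had 1383 and 1362 after BAY1217389 and 1095 and 1013 after DMSO (log2 fold change 0.24, SE 0.07, edgeR adjusted p = 0.0049). LINC02210 had 686 and 732 after BAY1217389, against 530 and 522 after DMSO (log2 fold change 0.29, SE 0.09, edgeR adjusted p = 0.0134). Near-identical stretches of LINC01116, LINC00707 and LINC02210 occur in 18, 3 and 2 other genes, so some of their reads may belong to those. Each of the 7 lost its call when some single libraries were left out. LINC00707 did so without DMSO replicate 2 (edgeR adjusted p = 0.101), and LINC00941 without BAY1217389 replicate 1 or DMSO replicate 2 (edgeR adjusted p = 0.144 for both). For LINC02210 the value reached 0.136, lost without BAY1217389 replicate 2 or either DMSO replicate. For LINC02535 any 1 library ended the call (edgeR adjusted p = 0.0559 to 0.228). LINC01508 (up to 0.321) lost it without BAY1217389 replicate 1 or either DMSO replicate, LINC01116 (up to 0.256) without either BAY1217389 replicate or DMSO replicate 2, and LINC02802 (up to 0.175) without either BAY1217389 replicate or DMSO replicate 1. With DESeq2 the calls of LINC02535 (adjusted p = 0.0738), LINC01508 (0.0903), LINC01116 (0.0991) and LINC02802 (0.0714) were lost, and without the filter on low counts those of LINC01508 (edgeR adjusted p = 0.0576) and LINC01116 (0.0628).

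The falls were mostly in transcripts with more reads than the largest rises. LINC00641, reported to act as a tumour suppressor in lung cancer, had 264 and 265 reads in the BAY1217389 libraries, against 401 and 448 in the DMSO libraries, or 6.12 ± 0.0937 CPM and 10.8 ± 0.894 CPM (SD, n = 2 each). Its log2 fold change was -0.82 (SE 0.12, edgeR adjusted p = 1.06e-06). LINC01433, reported to stabilise the growth regulator YAP in stomach cancer, had 409 and 446 reads after BAY1217389 and 620 and 563 after DMSO (log2 fold change -0.60, SE 0.10, edgeR adjusted p = 1.1e-05). LINC00648 had 144 and 180 after BAY1217389 and 278 and 237 after DMSO (log2 fold change -0.80, SE 0.16, edgeR adjusted p = 0.000152). LINC00938 had 269 and 248 after BAY1217389 and 362 and 355 after DMSO (log2 fold change -0.61, SE 0.12, edgeR adjusted p = 0.000201). In all 4 both BAY1217389 libraries lay below both DMSO libraries, and each call held with any 1 library left out.

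LINC02870 had 539 and 606 reads after BAY1217389 and 698 and 682 after DMSO (log2 fold change -0.41, SE 0.09, edgeR adjusted p = 0.000763). LINC00674 had 1929 and 1723 after BAY1217389 and 2073 and 1935 after DMSO, which, with the deeper BAY1217389 libraries, gave 42.3 ± 2.84 and 51.0 ± 2.26 CPM (log2 fold change -0.27, SE 0.06, edgeR adjusted p = 0.000282). LINC02806 had 1903 and 1748 after BAY1217389 and 2012 and 1963 after DMSO (log2 fold change -0.26, SE 0.05, edgeR adjusted p = 0.000286). These 3 calls also held with any 1 library left out. LINC01184, now named SLC12A2-DT as the divergent transcript of the chloride transporter gene SLC12A2, had 1015 and 891 after BAY1217389 and 1023 and 1029 after DMSO (log2 fold change -0.24, SE 0.08, edgeR adjusted p = 0.0131). LINC00667 had 987 and 925 after BAY1217389 and 960 and 1040 after DMSO (log2 fold change -0.20, SE 0.07, edgeR adjusted p = 0.0406). On the CPM scale the groups of all 5 were apart, while the raw reads of LINC00667 overlap. LINC01184 lost its call without BAY1217389 replicate 2 or DMSO replicate 2 (edgeR adjusted p up to 0.198), and LINC00667 without either BAY1217389 replicate or DMSO replicate 2 (up to 0.331). LINC00667 also lost it with DESeq2 (adjusted p = 0.0876) and without the filter on low counts (edgeR adjusted p = 0.0717).

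LINC02035 fell furthest, with 40 and 19 reads after BAY1217389 and 82 and 61 after DMSO (log2 fold change -1.41, SE 0.34, edgeR adjusted p = 0.00146). Its BAY1217389 libraries differed from each other by 2.07 times but stayed below both DMSO libraries, and without BAY1217389 replicate 2 the call was lost (edgeR adjusted p = 0.0735). LINC02152 had 65 and 60 after BAY1217389 and 87 and 99 after DMSO (log2 fold change -0.71, SE 0.25), and LINC02212 had 107 and 127 after BAY1217389 and 172 and 141 after DMSO (log2 fold change -0.56, SE 0.19). Both lost their calls without either BAY1217389 replicate and without 1 DMSO replicate, replicate 2 for LINC02152 (edgeR adjusted p = 0.102 to 0.164) and replicate 1 for LINC02212 (edgeR adjusted p = 0.0546 to 0.25). With DESeq2 both were lost (adjusted p = 0.0842 and 0.08), and LINC02212 was lost without the filter on low counts (edgeR adjusted p = 0.0587). A near-identical stretch of LINC02212 occurs in 1 other gene. LINC01123, reported as a MYC-activated transcript that promotes glycolysis in lung cancer cells, had 386 and 461 after BAY1217389 and 503 and 536 after DMSO (log2 fold change -0.43, SE 0.11, edgeR adjusted p = 0.00199). It shares 2256 bases at 99.9% identity with LINC01106, which had 225 and 246 after BAY1217389 and 256 and 269 after DMSO (log2 fold change -0.29, SE 0.14) and was not called. Their reads, summed after the values were seen, were 611 and 707 after BAY1217389 and 759 and 805 after DMSO, a difference of -0.38 on the log2 scale (SE 0.09). Without BAY1217389 replicate 1 the call of LINC01123 alone was lost (edgeR adjusted p = 0.0984).

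The start regions of LINC02035, which fell furthest, and of LINC00641 and LINC01433, the falls with the smallest p-values, are printed with motifs in capitals as above. They lie at chr3:122886263-122886562 on the plus strand, chr14:21205454-21205753 on the minus strand and chr20:4192840-4193139 on the plus strand.
LINC02035: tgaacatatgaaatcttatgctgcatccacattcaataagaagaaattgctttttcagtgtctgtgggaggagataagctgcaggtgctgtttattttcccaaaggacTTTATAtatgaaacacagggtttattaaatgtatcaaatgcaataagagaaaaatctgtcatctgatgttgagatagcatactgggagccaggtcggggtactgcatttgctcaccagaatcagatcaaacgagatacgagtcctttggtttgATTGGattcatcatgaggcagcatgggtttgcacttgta
LINC00641: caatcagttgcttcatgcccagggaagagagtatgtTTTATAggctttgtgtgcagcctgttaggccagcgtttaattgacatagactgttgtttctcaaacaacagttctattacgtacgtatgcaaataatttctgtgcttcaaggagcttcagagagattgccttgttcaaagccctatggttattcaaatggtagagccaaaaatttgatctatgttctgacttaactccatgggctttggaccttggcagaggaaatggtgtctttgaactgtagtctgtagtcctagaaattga
LINC01433: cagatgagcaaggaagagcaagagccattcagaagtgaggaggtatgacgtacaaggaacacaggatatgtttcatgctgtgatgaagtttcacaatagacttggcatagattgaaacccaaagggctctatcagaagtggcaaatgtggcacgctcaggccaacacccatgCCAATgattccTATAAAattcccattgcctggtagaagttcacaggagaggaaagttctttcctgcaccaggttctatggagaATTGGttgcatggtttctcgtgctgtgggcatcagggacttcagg
All 3 held the TATA box, at -142, -214 and -67, outside the place close to the start where that element usually lies. LINC02035 also held a CCAAT box at 12 and LINC01433 held CCAAT boxes at -78 and 6. Of the 11 lower members with a start region, 4 held the TATA letters and 6 the CCAAT letters, and of the 12 higher members 1 and 3 did, counts too small to compare. All promoters held them in 11.5% and 34.6%.

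**Figure D3:**
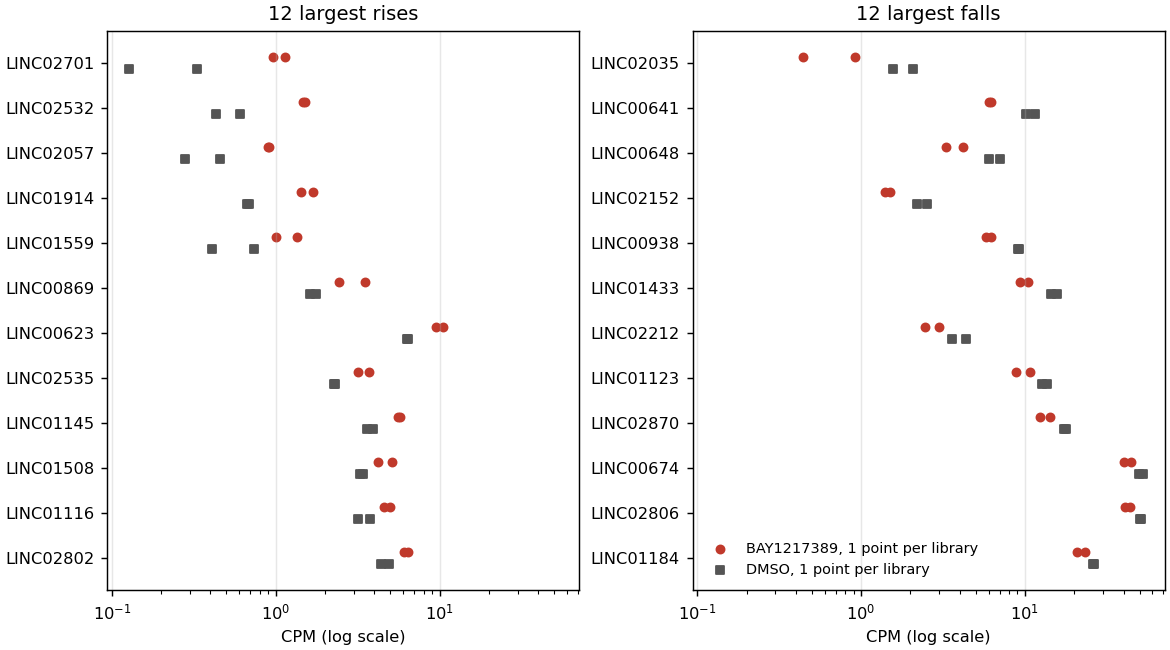
CPM (log scale) of the 12 largest rises (left panel) and 12 largest falls (right panel) in each library, with BAY1217389 libraries as red circles above the DMSO libraries as grey squares. In each of the 24 transcripts the points of the groups are apart, which was a condition for naming them and holds for all 28 called members. The 5 rises at the top lie below 2 CPM in every library.

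The most-read LINC transcript did not pass the test. LINC00473, a transcript switched on by the cAMP-responsive factor CREB and known to be high in lung cancers that have lost the kinase LKB1, had 5854 and 5577 reads in the BAY1217389 libraries, against 5022 and 5123 in the DMSO libraries, or 132 ± 2.87 and 129 ± 2.39 CPM (SD, n = 2 each). Its log2 fold change was 0.03 (SE 0.04, edgeR adjusted p = 0.541), with a 95% interval of -0.04 to 0.11 that includes 0, and the libraries of the groups overlapped. Its span overlaps PDE10A, a phosphodiesterase gene that was not called either (log2 fold change 0.06, SE 0.05). LINC00205 had 2670 and 2712 after BAY1217389 and 2665 and 2544 after DMSO (log2 fold change -0.09, interval -0.18 to 0.01). LINC01137, now named LITATS1 and reported to restrain TGF-beta signalling, had 1998 and 1946 after BAY1217389 and 1872 and 1686 after DMSO (log2 fold change 0.01, interval -0.10 to 0.13). LINC00673, reported to limit the phosphatase PTPN11 in pancreatic cells, had 1478 and 1623 after BAY1217389 and 1349 and 1232 after DMSO (log2 fold change 0.13, interval -0.0044 to 0.26). LINC01000 had 1258 and 1173 after BAY1217389 and 970 and 989 after DMSO (log2 fold change 0.17, interval 0.03 to 0.32, edgeR adjusted p = 0.0588), and it was called with the stricter filter of 1 CPM in 2 libraries (edgeR adjusted p = 0.0383). Of the 8 most-read members, LINC00674 and LINC02806 were lower and LINC00707 was higher.

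A fixed list of 14 LINC names, reported whatever their values, held 9 members. Of these, 2 (LINC00941 and LINC01116) were called, both higher, beside 15.3% called of all members and 27.8% of all tested genes. LINC00513 was tested below the read limit, with 20 and 15 reads after BAY1217389 and 11 and 7 after DMSO, and was not called. The other 4 names were not among the symbols of the count table. LINC00511 had 102 and 82 reads after BAY1217389 and 76 and 59 after DMSO (log2 fold change 0.31, SE 0.25). LINC00460 had 64 and 68 after BAY1217389 and 64 and 51 after DMSO (log2 fold change 0.06, SE 0.28). LINC00662 had 531 and 567 after BAY1217389 and 554 and 584 after DMSO (log2 fold change -0.19, SE 0.09). LINC00662 had its groups apart on the CPM scale, and the libraries of the other 2 overlapped. LINC00963 (0.03, SE 0.10), LINC00467 (0.05, SE 0.13) and LINC00665 (0.04, SE 0.43) had log2 fold changes near 0, and the last of these is poorly bounded, with an interval of -0.83 to 0.91.

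Libraries of a group usually agreed closely. The median ratio of the higher to the lower library was 1.13 for BAY1217389 and 1.14 for DMSO. A ratio over 2 occurred in 5 members, LINC00294, LINC01547, LINC01910, LINC02035 and LINC02701. LINC00294, singled out after its values were seen, had 97 and 31 reads after BAY1217389 and 1 and 20 after DMSO. Its log2 fold change of 2.45 was the largest of all members, its SE was 1.36 and it was not called (edgeR adjusted p = 0.356). Left without DMSO replicate 1 its log2 fold change was 1.52 (edgeR adjusted p = 0.00344), and without DMSO replicate 2 it was 5.7 (edgeR adjusted p = 9.04e-12). The size of the difference in this transcript thus depends on which DMSO library is used, and what sets its libraries apart was not tested.

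Neighbouring coding genes were taken as the nearest tested coding gene on each side in RefSeq's order, at any distance. The 28 called members have 56 such neighbours, and 34 of these (60.7%) had a log2 fold change of the same sign as the member, beside 212 of 360 (58.9%) for all members with a match. Of the 56, 24 (42.9%) were called, beside 125 of 360 (34.7%) for all members, a set that includes the called ones. Of all tested genes 27.8% were called, and of coding-gene rows with 100 or more reads 33.2%. Of the called neighbours, 16 (66.7%) had the member's sign, beside 81 (64.8%) for all members. The share of like signs is thus near that of all members. LINC02535 lies beside NT5E, the gene of CD73, which makes adenosine from AMP and had 8350 and 7777 reads after BAY1217389, against 3647 and 3420 after DMSO (log2 fold change 1.05, SE 0.04). LINC02532 lies beside CD24, a surface glycoprotein gene with 5849 and 5397 reads after BAY1217389 and 2888 and 2764 after DMSO (log2 fold change 0.86, SE 0.04). EMP1, an epithelial membrane protein gene beside LINC01559, had a log2 fold change of 0.59 (SE 0.05), PKDCC, a secreted kinase gene beside LINC01914, 0.61 (SE 0.12) and PRKCQ, the protein kinase C theta gene beside LINC00707, 0.64 (SE 0.18). All 5 of these neighbours were called higher, like the LINC transcript beside them.

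Among the falls, LINC00641 lies between ZNF219 (log2 fold change -0.44, SE 0.05) and HNRNPC, which encodes an RNA-binding protein (-0.20, SE 0.03). LINC00674 lies between KPNA2, the gene of a nuclear import receptor (-0.42, SE 0.03), and AMZ2 (-0.15, SE 0.04). ARID2, a chromatin remodelling gene beside LINC00938, had -0.19 (SE 0.05), and all 5 were called lower with their LINC neighbour. Others moved against it. LINC02701 lies beside CPT1A, which brings fatty acids into mitochondria (-0.18, SE 0.04). LINC02212 lies beside ANKRD33B (0.69, SE 0.06). Both neighbours of LINC02806, NBPF11 (0.24, SE 0.09) and NBPF14 (0.33, SE 0.09), were called higher. So were PDIA5 beside LINC02035 (0.30, SE 0.10) and TGIF1 beside LINC00667 (0.13, SE 0.03). LINC00623 and LINC01145 lie beside the paralogs FAM72B (-0.83, SE 0.12) and FAM72D (-0.84, SE 0.11), whose near-identical copies make their counts uncertain. Among the 6 members renamed as divergent transcripts, LINC01184 was the only one called. Its partner SLC12A2 had 881 and 850 reads after BAY1217389 and 798 and 820 after DMSO (log2 fold change -0.04, SE 0.08). No partner of the 6 was called.

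**Figure D4:**
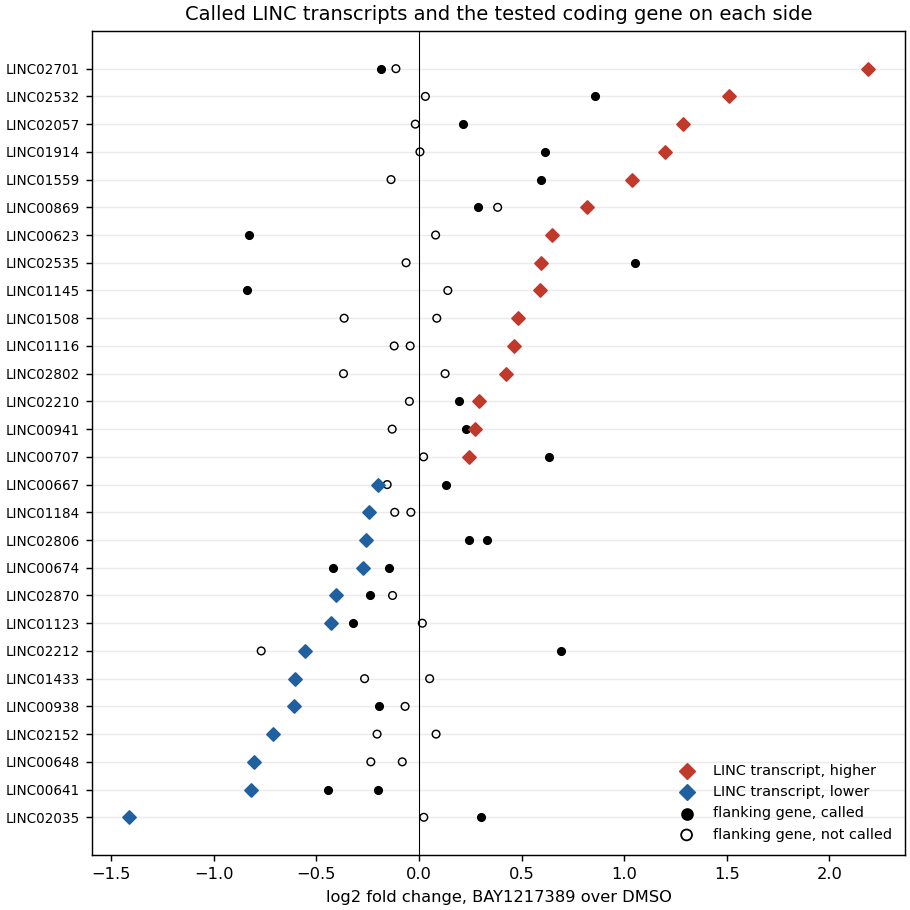
Each row is 1 of the 28 called LINC transcripts (diamond, red where higher and blue where lower), ordered by its log2 fold change, with the tested coding gene on each side as a circle, filled where called. The filled circles fall on the member's side of 0 for 16 of 24, NT5E (1.05) beside LINC02535 lies farthest to the right, and the circles of LINC02701 lie left of 0.

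Other noncoding transcripts gave a comparison. Beside the 15 higher and 13 lower LINC transcripts (15.3% called) stood 249 antisense-named rows with 100 or more reads, of which 11 were higher and 22 lower (13.3% called). Their median log2 fold change was -0.08, with 87 above 0 and 162 below, and the difference between these classes was not tested. Among 30 lncRNAs named otherwise, 25 were tested. Of these 25, 6 were higher, 7 lower and 12 not called. All tested genes gave 4660 calls of 16738 (27.8%), and those with 1000 or more reads gave 3963 of 10728 (36.9%). H19, an imprinted transcript, had 73 and 94 reads after BAY1217389, against 10 and 11 after DMSO (log2 fold change 2.84, SE 0.37). PURPL (0.44) and LINC-PINT (0.47) were higher. NEAT1, the scaffold of nuclear paraspeckles, was lower (-0.42, SE 0.03), as were DANCR (-0.64), CRNDE (-0.48) and the snoRNA host GAS5 (-0.28). Without BAY1217389 replicate 1 the higher calls were 2 among these lncRNAs and 4 among the antisense-named rows.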

How the data were processed

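Counts came from 4 libraries of H1944 cells, 2 after BAY1217389 and 2 after DMSO, made with a stranded poly(A) kit per the labels' protocols. Per the file headers, the deposited sheets give each gene's raw read count beside its symbol and RefSeq accession. The submitters' processing notes name hg18, but the table holds later RefSeq identifiers, so the annotation is uncertain. For the aligner, counting tool and strand setting, nothing is given in the sources used here. Another 4 columns of values (16 with repeats) match no sample and were not used.

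Counts were fitted with edgeR 4.0.16 in R 4.3.3 (filterByExpr with minimum count 10 and total 15, TMM factors 0.994 to 1.01, robust quasi-likelihood test, two-sided, Benjamini-Hochberg adjustment over 16738 genes, threshold 0.05). The test was checked on simulated data with 200 changed genes. CPM were scaled by TMM-adjusted library size, and the log2 fold change is BAY1217389 minus DMSO. The SD is over 2 libraries and can lie below counting error. P-values rest on the spread between these libraries, pulled towards a trend over all tested genes. A gene's own libraries give 2 degrees of freedom, beside a median of 31.1 from the trend. The independence of the libraries rests on the labels. A count of 0 in a library allows 3 reads, counting error only. Without molecular identifiers, reads are not separate molecules.

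Members were matched to RefSeq genes (170 by accession, 12 by symbol), and 136 have a promoter in RefSeq's table. GENCODE 29 transcripts were compared with BLAST 2.17.0 at 98% identity over 150 bases, and 38 members, 8 of them called, had such a stretch in another gene. Only 159 members have GENCODE 29 transcripts, and the rest were not searched and count as having no stretch. Named members are the 12 largest rises and falls among called members with separate groups, the 8 most read, the 4 nearest the read limit on each side (ties kept) and 14 fixed names. Called members outside these and LINC00294 were added after their values were seen. The members and lists were chosen with earlier results of these data known. Alternatives were DESeq2 1.42.0, other size factors and filters, thinning, a replicate block, other read limits and leaving out each library.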

Additional observations from a re-analysis of the deposited data

How the results depend on the processing

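All 28 called members kept their sign under every alternative that tested them, and 9 (2 higher, 7 lower) were called under all 10, with LINC02701 called in each of the 9 that tested it. The groups of all 28 were apart in CPM, so leaving out 1 library could hardly reverse a sign. The other alternatives refit the same libraries, so the kept signs are no added support. DESeq2 called 9 members higher and kept 19 of the 28 calls. Among members with no near-identical stretch found, an alternative chosen after seeing the data, 9 were higher. That set includes members without GENCODE transcripts, which were not searched. Leaving out each library gave 7 to 14 higher and 8 to 12 lower and kept 15 to 23 calls, for these fits hold 3 libraries, the lone library of a group being assumed to vary like the others. The same fits gave 2 to 6 higher and 6 to 7 lower among the other named lncRNAs and 4 to 12 higher and 16 to 25 lower among antisense-named rows. The median log2 fold change of 0.0081 was -0.0185 with the stricter filter of 1 CPM in 2 libraries, -0.028 at 200 or more reads, -0.0109 at 50 or more reads in each group and -0.0184 to 0.0132 without single libraries, so its sign is not settled. The uncalled LINC01137 (-0.06 to 0.0827), LINC00460 (-0.0902 to 0.228), LINC00963 (-0.043 to 0.101), LINC00467 (-0.0191 to 0.12) and LINC00665 (-0.433 to 0.4) changed sign over the same fits, with values below 0 without BAY1217389 replicate 1 (LINC00963, LINC00467, LINC00665) or DMSO replicate 2 (LINC01137, LINC00460, LINC00963, LINC00665). The cause was not tested, beyond the fewer libraries. Replicate numbers were not shown to pair the samples (correlation of deviations 0.044). With a replicate block 15 members were higher and 13 lower, and all 28 calls were kept. Members under 300 reads are limited by depth.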

Other observations

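LINC rows with fewer than 100 reads also held calls. Of the 113 such rows that were tested, 9 were higher and 0 lower in edgeR, and 17 had an unadjusted p under 0.05. That is 7.96% higher, beside 7.55% higher and 0.533% lower of all 2065 tested genes under 100 reads, a share near the background. A row this low passes the filter on counts mostly through the group in which it is high, so these calls are a description and were picked after their values were seen. LINC01980 had 46 and 30 reads after BAY1217389 and 0 and 0 after DMSO, 22.9-fold higher against the limit of 3 reads over both DMSO libraries. LINC00536 had 32 and 14 after BAY1217389 and 0 and 0 after DMSO, 13.8-fold higher on the same basis. LINC01622 had 12 and 13 after BAY1217389 and 0 and 0 after DMSO, 7.52-fold higher. These folds take the BAY1217389 reads as counted and leave out their error, so they are not lower bounds. LINC02019 had 39 and 37 after BAY1217389, against 7 and 9 after DMSO (log2 fold change 2.09, SE 0.50), and LINC02100 had 39 and 27, against 8 and 12 after DMSO (log2 fold change 1.57, SE 0.50). LINC02798 (1.40), LINC00622 (1.88), LINC01265 (2.44) and LINC02818 (3.67) complete the 9 by log2 fold change, the last 2 with 0 reads in 1 DMSO library.

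Within the sum limit, LINC01089 overlaps SETD1B, a histone methyltransferase gene that was higher after BAY1217389 (log2 fold change 0.16, SE 0.05), while LINC01089 itself had -0.18 and was not called. Of the 13 coding genes that members overlap, SETD1B was the only one called, and 10 of the 14 pairs of member and gene had the same sign.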
